A study of Homo sapiens with 2 samples.

Results

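The 39 HOX genes of the HOXA, HOXB, HOXC and HOXD clusters were examined in RNA from a parental lung cancer line and a gefitinib-resistant line derived from it. They were taken as every row of the deposited table whose symbol is HOX, a letter from A to D and a number, which gave 39 of 20985 genes: 11 of HOXA, 10 of HOXB, 9 of HOXC and 9 of HOXD. Of them 27 were expressed, with a level of 1 or more in at least 1 library, as were 65.7% of all genes. HCC827 is an established lung adenocarcinoma line whose EGFR carries an activating mutation; gefitinib blocks that kinase. The parental group was HCC827 itself, and the resistant group was HCC827 ZDR3, grown out of HCC827 under gefitinib, with 10 nM in the first month (1 month), 3-fold steps each month after it and a final 1 µM. The treatment text breaks off after naming 3 single colonies. The labels do not say whether ZDR3 is 1 of them, nor whether gefitinib was present at harvest, and the growth protocol given for both groups describes medium for isotope labelling of proteins. Each group held 1 library of polyadenylated RNA, so every difference below is one between 2 libraries, with no replicate check and no p-value.

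HOX genes encode homeodomain transcription factors that give cells along the body axis their regional identity. Within a cluster the genes stand in the order of their paralogue numbers, and genes with the same number in different clusters descend from 1 ancestral gene. Low numbers act anteriorly, as in the hindbrain, and high numbers act posteriorly, as in the limbs, hindgut and urogenital tract. Adult cells retain part of this regional code through the balance of Polycomb repression and Trithorax activation, and HOXA and HOXB genes are known in lung development, with HOXA5 needed for lung and tracheal growth.

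Gene reads totalled 257192597 (parental) and 243549866 (resistant). Levels are normalised reads, in which 1 unit stood for 143 parental or 138 resistant reads. Ratios are plain ratios of levels with an exact (Clopper-Pearson) 95% interval that covers counting error only, while log2 ratios set resistant over parental once both levels had 1 unit added, which understates differences of low genes. Levels are not corrected for gene length, so genes are compared with each other only after division by exon length. In these bulk samples, fewer cells of a kind and less RNA per cell cannot be told apart. All 8 epithelial marker genes were expressed, and 8 of 8 were lower by 2-fold or more in resistant cells (summed level 14096 parental, 3824 resistant), EPCAM among them at 527 and 62.4. Of 9 lung alveolar markers 4 were expressed, 3 of them lower and 1 higher by 2-fold or more, with summed levels of 176 and 191. Over all expressed genes 9.68% were lower and 10.6% higher by 2-fold or more. NKX2-1, the lung lineage homeobox gene, was at 95.0 and 9.33, NAPSA at 27.5 and 6.11 and SLC34A2 at 39.8 and 0.0945. The lipid transporter gene ABCA3, at 13.4 and 175, made up most of the resistant alveolar sum. The surfactant gene SFTPC had 0 reads in both libraries. Summed levels were 9.54 and 1.95 for 8 fibroblast markers, 655 and 305 for 10 leukocyte markers and 0.889 and 1.61 for 6 endothelial markers. LCP1 made up 651 and 304 of the leukocyte sum, and COL1A1 9.15 and 1.76 of the fibroblast sum. COL3A1, POSTN, CD3D, CD3E and MS4A1 had 0 reads in both libraries. The part of these markers in the HOX results was not tested.

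The 4 clusters did not go the same way: HOXA and HOXB genes were mostly lower, and HOXC and HOXD genes mostly higher, in the resistant library. Of 27 expressed HOX genes, 17 were lower and 10 higher beyond their counting intervals. In HOXA and HOXB 15 of 17 expressed genes were lower, and in HOXC and HOXD 8 of 10 were higher. The minimum level shaped these counts: HOXA13, HOXB13, HOXC4, HOXC8, HOXD3 and HOXD9 passed it through the resistant library alone, where they were higher, and HOXA2 through the parental library alone, where it was higher. Over every member with reads in either library, 16 of 20 in HOXA and HOXB were lower and 2 higher, and 11 of 15 in HOXC and HOXD were higher and 2 lower. Over all 13777 expressed genes 47.9% were lower and 43.5% higher by the same rule, since at this depth small differences exceed counting error. These shares leave out genes below the minimum level, and the share over all genes with reads was not computed. On the log2 scale with 1 unit added, differences of 2-fold or more were seen for 5 HOX genes in the lower direction (18.5%, against 9.68% of all expressed genes) and 4 in the higher direction (14.8%, against 10.6%). HOXA2, HOXA11, HOXB6 and HOXB8 were among the lower ones, and the higher ones were HOXC6, HOXC9, HOXD8 and HOXD9. The plain ratio also passed 2-fold, without the added unit, for HOXA5, HOXA9, HOXB5 and HOXC11 downwards and for HOXA13, HOXC4, HOXC8 and HOXD3 upwards. The share of all expressed genes that pass 2-fold by the plain ratio was not computed, so these have no background beside them. The median log2 ratio of the 27 genes was -0.38, beside -0.03 for all expressed genes, and the 26 described singly ranged from -1.29 to 1.99. With only 2 libraries the split between clusters could not be tested.

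**Figure D1:**
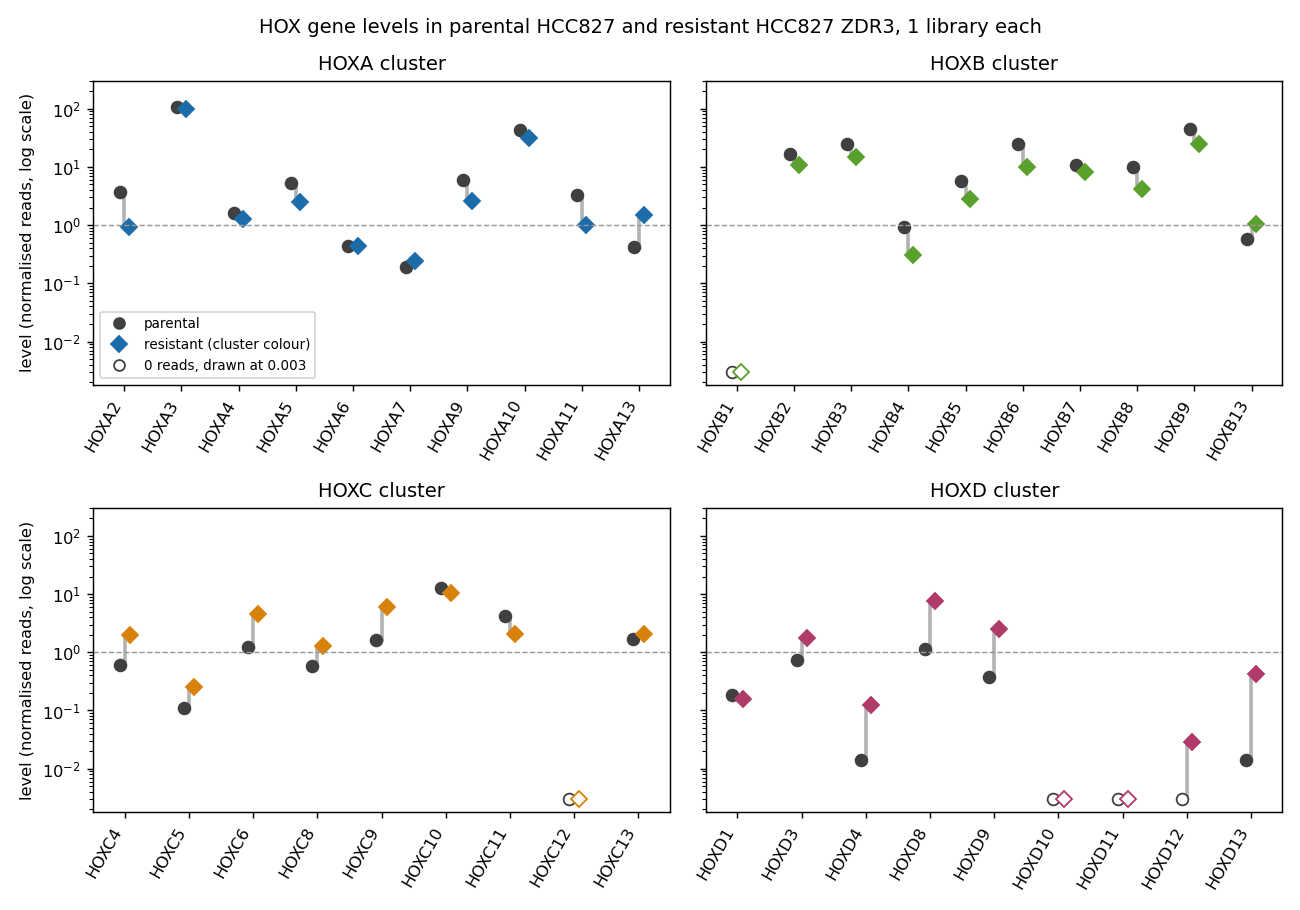
Level of 38 HOX genes in normalised reads (log axis, not corrected for gene length) in the parental library (grey circles) and the resistant library (coloured diamonds), by cluster and paralogue number. Open marks stand for 0 reads and the dashed line for the minimum level of 1. HOXB2 to HOXB9 are all lower in the resistant library, whereas HOXC4 to HOXC9 and HOXD3 to HOXD9 are all higher.

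Summed over each cluster, the levels show the same order. HOXA genes summed to 200.2 in parental and 144 in resistant cells, 1.39-fold lower (1.36 to 1.41). HOXB genes summed to 139 and 77.5, which was 1.79-fold lower (1.74 to 1.83). HOXC genes summed to 22.8 and 28.8, 1.27-fold higher (1.21 to 1.33). HOXD genes were scarce in parental cells at 2.48 and reached 12.6 in resistant cells, 5.07-fold higher (4.52 to 5.70). The HOXA sum rests mainly on HOXA3, and without it the other 10 genes were at 92.7 and 46.6, 1.99-fold lower.

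Divided by exon length, HOX transcripts of parental cells came mostly from HOXA (47.3%) and HOXB (44.2%), with 7.69% from HOXC and 0.758% from HOXD. In resistant cells the shares were 45.0%, 35.3%, 14.3% and 5.46%. HOXC and HOXD together thus made up 8.45% of the HOX total per kilobase in parental and 19.8% in resistant cells. The 4 highest genes per kilobase were HOXA3, HOXB9, HOXA10 and HOXB6 in parental cells, at 29.3, 17.2, 13.5 and 12.6 units per kilobase. HOXA3 was again first in resistant cells at 26.6, followed by HOXA10 at 9.83 and HOXB9 at 9.75, while HOXB6 had moved from rank 4 to rank 7. HOXC9 moved from rank 17 to rank 8, and HOXD8 from rank 21 to rank 9. Exon lengths were those of an annotation that need not be the one used for counting.

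Promoter sequences are shown for the expressed member with the largest absolute log2 ratio of HOXA, HOXC and HOXD among those with a RefSeq window (HOXA2, HOXC4 and HOXD8), and for HOXA11 and HOXA13, which are next to each other in the cluster and went opposite ways. Each is the 250 bases before the RefSeq start on GRCh38.p14, written 5′ to 3′ on the gene's own strand. The start used in these cells is not known.
HOXA2 (chr7:27102684-27102933, minus strand): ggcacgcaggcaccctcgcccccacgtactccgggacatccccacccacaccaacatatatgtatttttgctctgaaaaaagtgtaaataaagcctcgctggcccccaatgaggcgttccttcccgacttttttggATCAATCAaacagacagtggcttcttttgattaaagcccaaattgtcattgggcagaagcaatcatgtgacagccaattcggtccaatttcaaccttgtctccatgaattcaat
HOXA11 (chr7:27185233-27185482, minus strand): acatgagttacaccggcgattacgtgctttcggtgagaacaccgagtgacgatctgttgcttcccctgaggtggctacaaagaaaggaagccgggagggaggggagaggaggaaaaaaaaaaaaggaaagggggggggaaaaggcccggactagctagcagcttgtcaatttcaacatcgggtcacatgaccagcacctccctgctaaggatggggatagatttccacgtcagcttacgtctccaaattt
HOXA13 (chr7:27200092-27200341, minus strand): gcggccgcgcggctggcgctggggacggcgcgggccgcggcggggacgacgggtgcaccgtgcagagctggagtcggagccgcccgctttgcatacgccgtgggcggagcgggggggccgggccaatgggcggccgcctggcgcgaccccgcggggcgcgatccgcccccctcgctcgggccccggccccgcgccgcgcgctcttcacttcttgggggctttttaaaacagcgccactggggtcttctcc
HOXC4 (chr12:54016638-54016887, plus strand): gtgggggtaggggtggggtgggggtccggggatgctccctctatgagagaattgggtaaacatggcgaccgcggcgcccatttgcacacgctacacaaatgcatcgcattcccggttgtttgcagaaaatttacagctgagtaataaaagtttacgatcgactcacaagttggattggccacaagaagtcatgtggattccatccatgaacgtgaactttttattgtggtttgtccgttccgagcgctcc
HOXD8 (chr2:176129455-176129704, plus strand): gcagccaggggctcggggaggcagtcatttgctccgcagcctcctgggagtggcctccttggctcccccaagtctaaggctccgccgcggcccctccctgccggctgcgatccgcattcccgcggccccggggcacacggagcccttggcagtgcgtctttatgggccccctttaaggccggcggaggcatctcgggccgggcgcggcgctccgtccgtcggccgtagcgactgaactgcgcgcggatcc

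Capitals mark a match to TGATNNAT, the joint site of HOX proteins with their PBX partners. HOXC5 has the same RefSeq window as HOXC4. RefSeq windows were found for 20 of the 39 genes, 27 windows in all since HOXA3 has 7 and HOXA10 has 2. Of these 27 windows, 17 matched a GENCODE transcript of their gene at the start. Each window printed above was among the 17 except that of HOXC4. TGATNNAT was searched on both strands and stood in 3 of the 27 windows (HOXA2, HOXB1 and HOXD11), and in 6.47% of 35116 promoters. The AP-1 site TGANTCA, bound by JUN and FOS proteins, stood in 0 of 27 and in 6.57% of all promoters. The related site TGACGTCA stood in 0 of 27 and in 1.65% of all. The TATA box letters TATAAA stood in 5 of 27 and in 10.7% of all. The HOX windows held a median of 19 CpG dinucleotides, beside 11 over all promoters. The HOXA13 and HOXD8 windows held 40 and 28, and the HOXA2, HOXA11 and HOXC4 windows 8, 11 and 14. Members with no window found include HOXA5, HOXB2 to HOXB9, HOXB13, HOXC6, HOXC8 to HOXC13 and HOXD9.

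In the HOXA cluster on chromosome 7, 8 of 9 expressed genes were lower in the resistant library. HOXA2, which patterns the second branchial arch and carries the HOX-PBX letters printed above, was at 3.67 and 0.916, 4.01-fold lower (3.30 to 4.91). HOTAIRM1, a noncoding RNA at the anterior end of the cluster, was at 74.5 and 13.6, 5.48-fold lower. The gene after HOXA2 had a ratio closer to 1. HOXA3, known for its part in thymus and parathyroid development, was the most abundant HOX gene of both libraries, at 107 and 97.5, 1.10-fold lower (1.08 to 1.13). HOXA4 was at 1.64 and 1.29, 1.27-fold lower (1.04 to 1.55). In the annotation 31.0% of the exon bases of HOXA4 also belong to AC004080.6 on the same strand, and 14.5% lie opposite HOXA-AS2. HOXA3 and HOXA4 turned to the higher side once the median of the neighbouring genes was subtracted, with log2 ratios of 0.18 for HOXA3 and 0.11 for HOXA4.

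Further along the cluster, HOXA5, the lung growth gene, was at 5.33 and 2.49, 2.15-fold lower (1.89 to 2.45). HOXA9, a gene known from leukaemia, was at 5.99 and 2.62, 2.28-fold lower (2.02 to 2.59). HOXA10, which acts in the uterus, was the second HOXA gene in abundance at 42.8 and 31.0, 1.38-fold lower (1.32 to 1.43). HOXA9 and HOXA10 thus differed between the libraries by unequal factors although they stand side by side and both share exon bases with 1 further gene, AC004080.3, in the annotation. HOXA11, a limb and uterus gene, was at 3.26 and 1.02, 3.21-fold lower (2.65 to 3.90). Its antisense transcript HOXA11-AS1 was at 4.37 and 2.22, 1.97-fold lower. They share 546 exon bases on opposite strands, and since the strand setting of the counting is not given in the sources used here, reads of the pair cannot be told apart there. HOXA13, the terminal gene needed for digits and hindgut, went the other way, at 0.413 and 1.48, 3.59-fold higher (2.67 to 4.88). HOXA6 (63 and 61 reads) and HOXA7 (27 and 33 reads) were below the minimum level, and their differences lay within counting error. Of the exon bases of HOXA7, 74.7% lie opposite the antisense gene HOXA-AS3. HOTTIP, the noncoding RNA at the HOXA13 end, had 12 and 12 reads.

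**Figure D2:**
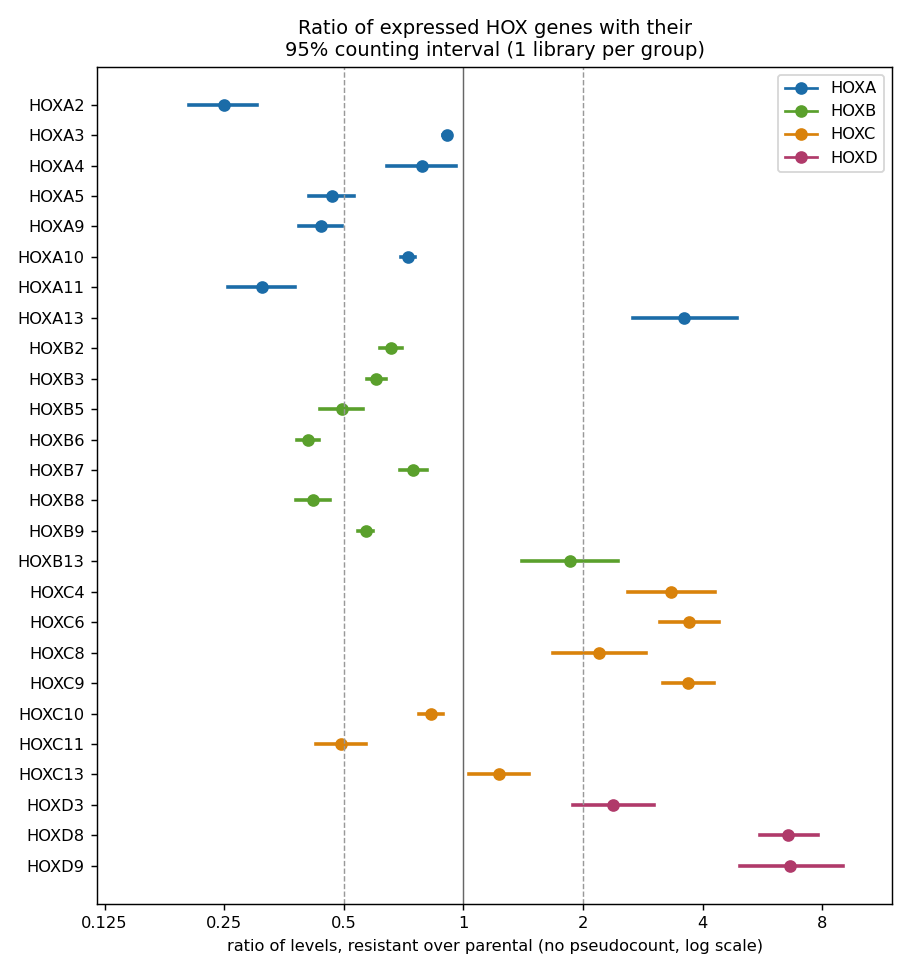
Ratio of levels, resistant over parental (log axis, no pseudocount), of 26 expressed HOX genes, with points for the ratio and bars for the exact 95% counting interval. Dashed lines stand at 2-fold. HOXA2 is lowest of those drawn at 4.01-fold lower and HOXD9 and HOXD8 highest at 6.63-fold and 6.57-fold higher. HOXA13 and HOXB13 lie apart from the rest of their clusters.

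The HOXB cluster on chromosome 17 was lower from HOXB2 to HOXB9, by 1.34-fold to 3.004-fold. HOXB9, its most abundant gene, was at 44.4 and 25.2, 1.76-fold lower (1.69 to 1.84). HOXB6 was at 24.7 and 10.01, 2.46-fold lower (2.32 to 2.62), and HOXB8 at 10.1 and 4.22, 2.39-fold lower (2.17 to 2.64). HOXB7, which stands between them, was at 10.9 and 8.17, 1.34-fold lower (1.24 to 1.44), an interval that does not overlap with theirs. HOXB3 was at 24.7 and 14.9 (1.66-fold lower). HOXB2, a hindbrain gene, was at 16.7 and 10.95 (1.52-fold lower), and HOXB5 at 5.68 and 2.80, 2.02-fold lower (1.79 to 2.29), which overlaps with the interval of HOXB8. HOXB4, a gene known for expanding blood stem cells, was below the minimum level with 131 and 42 reads, 3.004-fold lower (2.11 to 4.36). HOXB13, the prostate and hindgut gene at the far posterior end, was again an exception, at 0.574 and 1.06, 1.85-fold higher (1.40 to 2.45). HOXB1 had 0 reads in both libraries. PRAC, a small transcript between HOXB9 and HOXB13, had 47 parental and 0 resistant reads.

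In the HOXC cluster on chromosome 12, the genes from HOXC4 to HOXC9 were higher and the next 2 lower. HOXC9, a thoracic patterning gene, was at 1.64 and 6.02, 3.68-fold higher (3.18 to 4.27). HOXC6 was at 1.25 and 4.61, 3.70-fold higher (3.13 to 4.39), HOXC4 at 0.595 and 1.98, 3.32-fold higher (2.60 to 4.29), and HOXC8 at 0.581 and 1.27, 2.19-fold higher (1.68 to 2.88). HOXC5 was below the minimum level with 16 and 35 reads. HOXC4, HOXC5 and HOXC6 are not independent of each other: HOXC4 and HOXC6 share 484 exon bases on 1 strand in the annotation, and HOXC4 and HOXC5 the window printed above.

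HOXC10, a lumbar and hindlimb gene, was the most abundant HOXC gene per kilobase in both libraries, at 6.59 and 5.46 units per kilobase. Its level was at 12.8 and 10.6, 1.21-fold lower (1.13 to 1.29), and HOXC11 at 4.14 and 2.03, 2.03-fold lower (1.76 to 2.35). HOTAIR, the noncoding RNA that lies on the other strand between HOXC11 and HOXC12, was at 2.79 and 2.41, 1.16-fold lower. HOXC13, which acts in hair and nails, was at 1.71 and 2.10, 1.23-fold higher (1.03 to 1.46). HOXC12 had 0 reads in both libraries. Summed, HOXC4, HOXC5, HOXC6 and HOXC8 were 3.20-fold higher (2.84 to 3.61). The summed levels of HOXC9 to HOXC13, 20.2 and 20.7, had a ratio of 1.02 whose interval includes 1 (0.973 to 1.08), with HOXC9 higher and HOXC10 and HOXC11 lower.

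The HOXD cluster on chromosome 2 was scarcely expressed in parental cells, and the 2 highest ratios of the 27 expressed genes were in it. HOXD8 (ENSG00000175879) was at 1.15 in parental and 7.59 in resistant cells (165 and 1044 reads), 6.57-fold higher (5.57 to 7.79). HOXD9, a forelimb gene, was at 0.378 and 2.51, 6.63-fold higher (4.97 to 9.01). HOXD3 was at 0.742 and 1.77, 2.38-fold higher (1.89 to 3.02). In the annotation 88.5% of the exon bases of HOXD3 and 80.5% of those of HOXD4 also belong to other genes on the same strand, so the reads of these genes could be split or dropped in counting. HOXD4 had 2 and 17 reads, and HOXD13, the gene of distal limb patterning, 2 and 58 reads, a ratio of 30.1 with an interval of 7.97 to 255. HOXD12 had 0 and 4 reads. HOXD1, at the anterior end, had 26 and 22 reads, a difference within counting error, and 50.1% of its exon bases lie opposite another gene. HOXD10 and HOXD11 had 0 reads in both libraries, and stand between HOXD9 and HOXD13, which were both higher. A count of 0 allows up to 3 reads, a level of 0.0210 (parental) or 0.0218 (resistant).

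**Figure D3:**
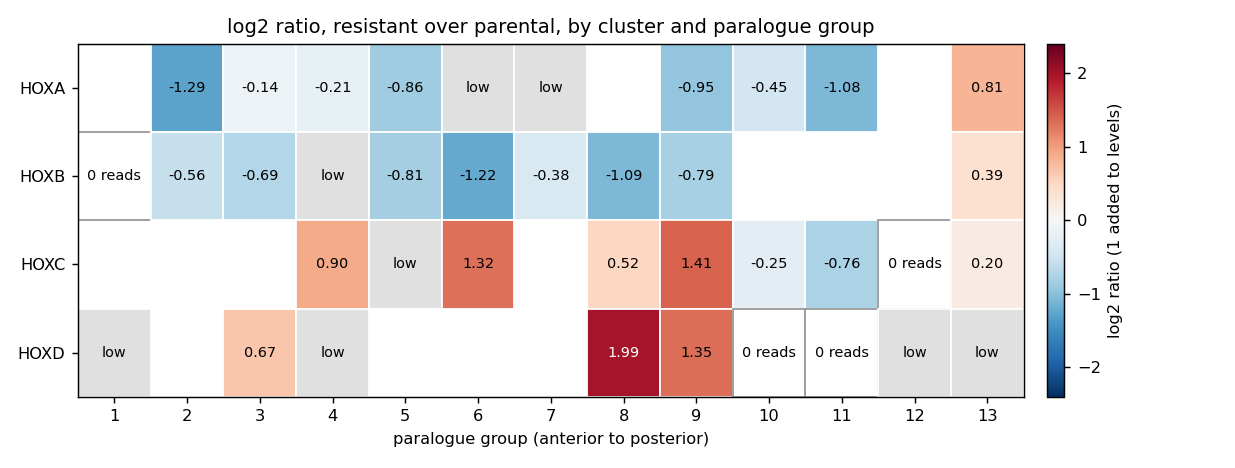
log2 ratio, resistant over parental after adding 1 unit, by cluster (rows) and paralogue group (columns), with red for higher and blue for lower in the resistant library. Grey cells are genes below the minimum level of 1, framed cells genes with 0 reads in both libraries, and blank cells positions with no gene in the table or none reported here. Group 9 is lower in HOXA and HOXB and higher in HOXC and HOXD, whereas the 3 expressed group 13 genes are all higher.

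Read across the clusters by paralogue number, the genes of 1 group often differed in direction. Group 9 is the clearest case since all 4 members were expressed: HOXA9 and HOXB9 were lower and HOXC9 and HOXD9 higher, and the summed level of the group was 52.4 in parental and 36.3 in resistant cells. In group 8, HOXB8 was lower and HOXC8 and HOXD8 higher, with sums of 11.8 and 13.1. In group 6, HOXB6 was lower and HOXC6 higher, with sums of 26.4 and 15.1. Group 13 was the one group with all 4 members higher beyond their counting intervals, HOXA13, HOXB13, HOXC13 and HOXD13, and its sum went from 2.71 to 5.06, 1.87-fold higher (1.65 to 2.12). In groups 10 and 11 the 4 members with reads, HOXA10, HOXC10, HOXA11 and HOXC11, were lower. By broad position, the sums of anterior genes (groups 1 to 3), central genes (4 to 8) and posterior genes (9 to 13) were 1.39-fold, 1.39-fold and 1.37-fold lower. These sums follow their most abundant genes: HOXA3 alone held 107 and 97.5 of the anterior sums of 182 and 131. They also mix clusters that went opposite ways. Central genes summed 1.71-fold lower in HOXA and 2.05-fold lower in HOXB, but 3.20-fold higher in HOXC and 6.60-fold higher in HOXD.

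The genes beside the clusters had medians closer to 0 than the HOX genes. Taking 20 expressed neighbours to either side, the median log2 ratio was -0.32 around HOXA, -0.16 around HOXB, -0.12 around HOXC and 0.02 around HOXD. The medians of the expressed HOX genes were -0.86, -0.74, 0.52 and 1.35, that of HOXD over 3 genes only. HOXA13, HOXB13, HOXC4, HOXC8, HOXD3 and HOXD9 entered these medians through the resistant library alone, and HOXA2 through the parental library alone. The minimum level thus shaped the HOX medians, and the neighbours were chosen by the same minimum. Single neighbours scattered more widely than the HOX genes, from -2.36 to 3.83 around HOXA (6 of 40 higher and 6 lower by 2-fold or more) and from -2.02 to 4.40 around HOXD (7 higher and 2 lower). Around HOXB they ran from -1.88 to 2.86 (6 higher and 2 lower) and around HOXC from -2.77 to 1.47 (3 higher and 4 lower). Over all expressed genes 10.6% were higher and 9.68% lower by 2-fold or more. Each cluster has fewer expressed HOX genes than its 40 neighbours, and a range widens with the number of genes. The highest HOXD neighbours, named after their values were seen, were OSBPL6 at 0.903 and 39.2 and RAPGEF4 at 0.175 and 3.87. At HOXD, the gene next to HOXD1 is MTX2, a mitochondrial import gene, which was at 78.1 and 78.6. KIAA1715, on the far side past the silent EVX2, was at 71.1 and 68.4. At HOXC, CALCOCO1 beside HOXC13 was at 263 and 240.3, and SMUG1, a DNA repair gene beside HOXC4, at 127 and 88.9. At HOXB, SNX11 was at 27.6 and 24.9. TTLL6, the expressed gene beyond HOXB13, was at 0.441 and 1.11, 2.52-fold higher (1.87 to 3.44). TTLL6 passed the minimum level through the resistant library alone. CALCOCO2, the next expressed gene, was at 209 and 170. At HOXA, SKAP2, the expressed gene beyond the anterior end, was at 306 and 102, 3.002-fold lower, while HIBADH, past HOXA13, was at 123 and 106. EVX1, the homeobox gene next to HOXA13, had 0 parental and 14 resistant reads. The part of SKAP2 and its surroundings in the low ratio of HOXA2 was not tested.

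**Figure D4:**
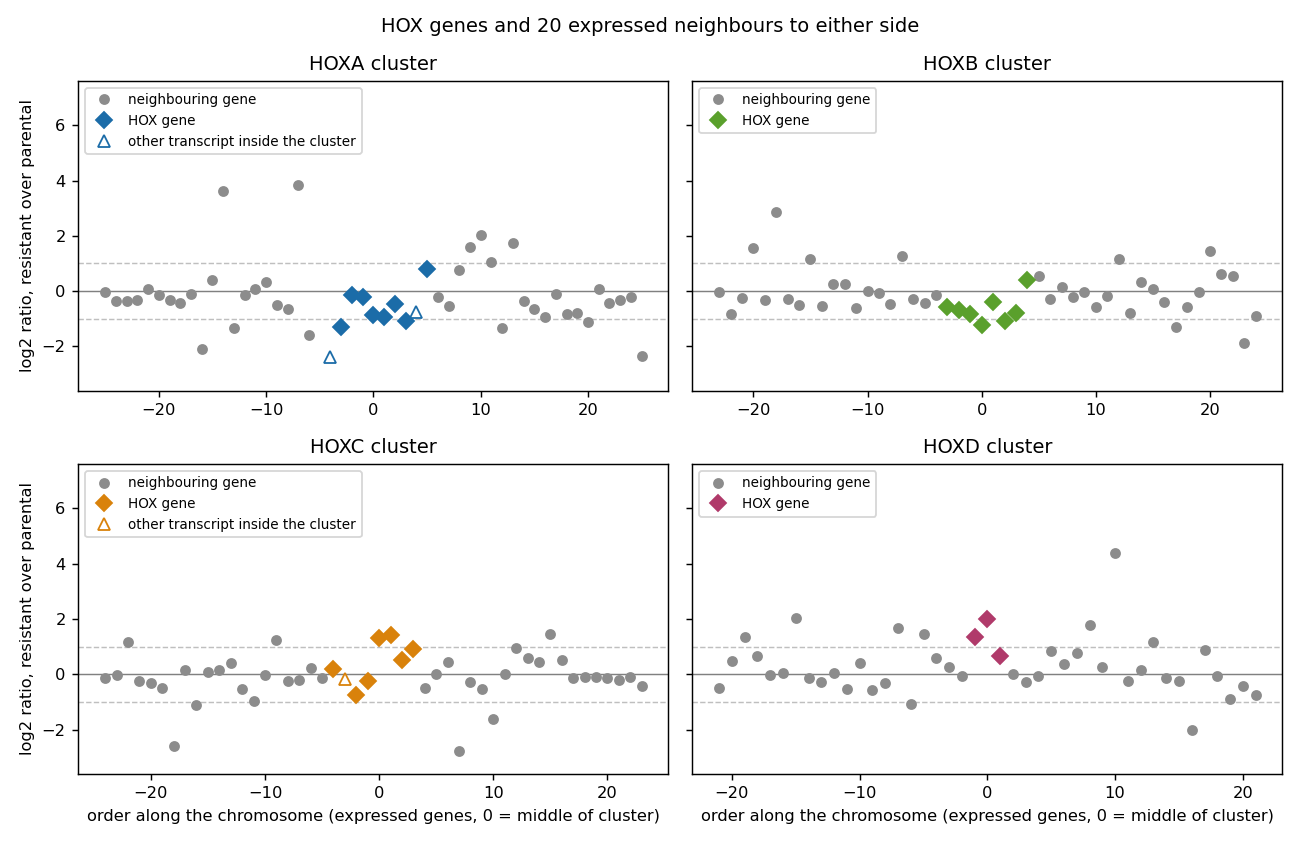
log2 ratio, resistant over parental, of expressed HOX genes (diamonds), other transcripts inside the clusters (open triangles) and 20 expressed neighbours to either side (grey circles), in chromosome order. Dashed lines stand at 2-fold. Neighbours scatter widely, from -2.77 to 4.40, around medians between -0.32 and 0.02; the HOXD genes and HOXC4 to HOXC9 lie above these medians but within the range of the neighbours.

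Partners and chromatin regulators were read from lists. To set beside the list counts that follow, 10.6% of all expressed genes were higher and 9.68% lower by 2-fold or more. HOX proteins bind DNA with TALE homeodomain partners of the PBX, MEIS and PKNOX families. Among 7 expressed TALE genes, 1 passed 2-fold on the higher side and 0 on the lower, with a median log2 ratio of -0.01. MEIS3 was at 3.78 and 12.6, 3.33-fold higher, and PBX3 at 45.4 and 62.3, 1.37-fold higher, while MEIS2 was at 70.4 and 63.4. PKNOX1 was at 26.6 and 20.1.

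Of 11 expressed genes of PRC2, the Polycomb complex that methylates histone H3 at lysine 27, 1 passed 2-fold upwards and 1 downwards, and the median log2 ratio was -0.17. RBBP7, a histone chaperone subunit, was at 280 and 788, and JARID2, which recruits the complex, at 42.8 and 17.5. The catalytic subunit EZH2 was at 137 and 103, 1.34-fold lower, and the accessory subunit MTF2 at 102 and 180. Of 19 PRC1 genes, whose complex ubiquitinates histone H2A and compacts chromatin, 3 passed 2-fold, all upwards, and the median was 0.03. They were CBX6 (82.5 and 234), PHC2 (314 and 876) and SCMH1 (244 and 526). CBX2, a chromodomain reader, was at 5.26 and 2.13, 2.47-fold lower (2.15 to 2.84) by the plain ratio. With 1 unit added its log2 ratio was -0.9996, just short of 2-fold.

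Of 15 Trithorax genes and histone demethylases that oppose Polycomb, 0 reached a 2-fold difference and the median was -0.29. Beyond counting error 13 of the 15 were lower and 2 higher, as were 47.9% and 43.5% of all expressed genes. The lowest was PSIP1, an MLL partner, at 181 and 95.1. The methyltransferase gene ASH1L was at 93.7 and 61.9. MLL, whose product maintains HOX expression, was named for this role after its values were seen and was at 273 and 253. Retinoic acid induces anterior HOX genes in the embryo. Of its 6 expressed receptors and clearing enzymes, 1 was higher and 2 were lower by 2-fold or more. RARG was at 164 and 26.3, CYP26A1 at 4.61 and 0.174, and CYP26B1 at 0.644 and 4.13. RARG itself lies on chromosome 12 among the 20 neighbours of the HOXC cluster. Of 5 CDX and EVX genes, the former known as activators of central HOX genes, 0 were expressed.

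Homeobox genes of the same ANTP class outside the clusters were also measured. Of 16 expressed genes, 8 were higher and 2 lower by 2-fold or more, and the median log2 ratio was 0.86. Over all expressed genes 10.6% were higher and 9.68% lower, with a median of -0.03. Of these 16 genes, 8 passed the minimum level through the resistant library alone, 7 of the 8 higher ones among them, so the count and median are shaped by the minimum. Of 31 such genes with reads in either library, 16 were higher and 9 lower beyond counting error. By that rule 43.5% of all expressed genes were higher and 47.9% lower. The share over all genes with reads, the like set for these 31, was not computed. EN1 was at 0.105 and 6.42, HLX at 0.252 and 10.1, EMX1 at 0.0700 and 3.64, and NKX2-1 at 95.0 and 9.33. Their log2 ratios ran from -3.22 (NKX2-1) to 3.15 (HLX), beside the -1.29 to 1.99 of the 26 HOX genes described singly. Their difference from the HOX genes as a group was not tested.

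**Figure D5:**
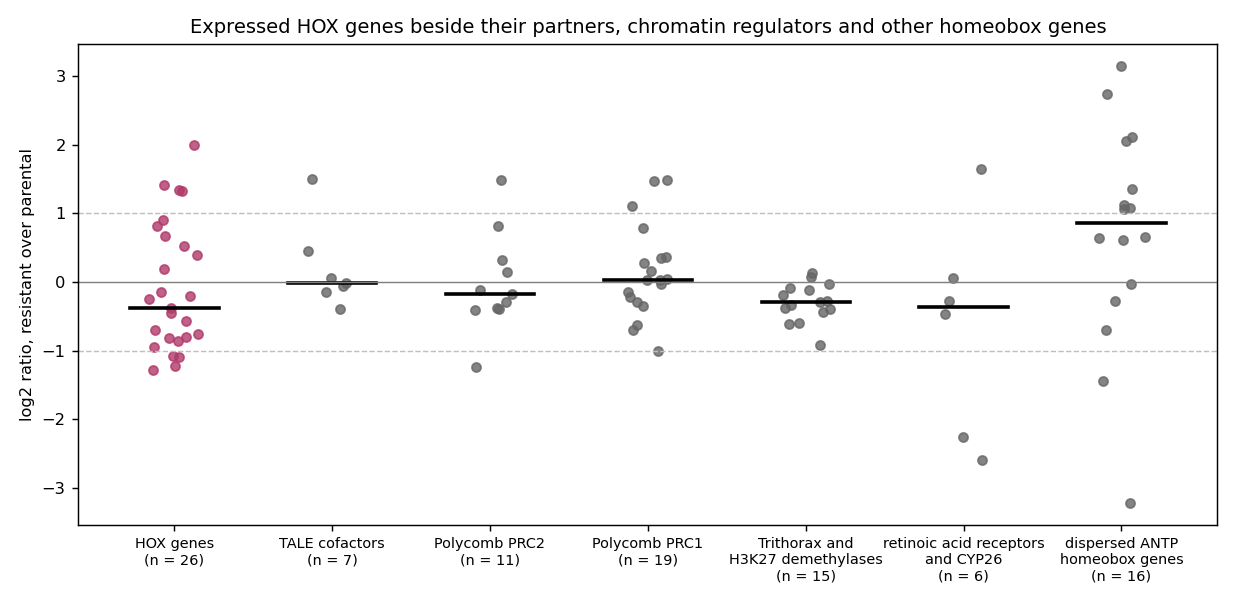
log2 ratio, resistant over parental, of 26 expressed HOX genes and of 6 lists of related genes, with a point per gene and a bar at each list's median (for HOX genes, over all 27). Dashed lines stand at 2-fold. The HOX genes drawn spread from -1.29 to 1.99 around a median of -0.38, while the Trithorax list keeps within 2-fold and the ANTP list has its median at 0.86.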

How the data were processed

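RNA-seq was measured in 1 parental and 1 resistant library, with polyadenylated RNA per the labels' protocols and TopHat named in the submitters' processing notes. Genome build, annotation and strand setting were not given in the sources used here. As deposited, the values were log2 values that the authors normalised, and zero-read genes stood at the lowest value. They were called RPKM by the authors, but back-transformed they were whole multiples of 1 step per library (100% within 0.1 read in 17090 and 17049 genes), so no division by length was seen. They were used as levels and as recovered reads. The column marked Prim was read as parental. A pseudocount of 1, a minimum level of 1 and a 2-fold threshold were used. Named genes were all expressed members, up to 4 genes a list (those furthest from 0 in log2 ratio), and expressed neighbours; exceptions are named as such, or are markers and members below the minimum. With 1 library a group no test was run, and intervals cover counting error only, since reads are not independent molecules. Exon lengths and gene order came from GENCODE 29 (38 members by identifier, HOXB7 by symbol), promoters from RefSeq. Python 3.11.15, pandas 2.3.3 and scipy 1.17.1 were used, checked on simulated data. Other pseudocounts, minimums, scalings and a subtraction of neighbours were tried. Values of 1 member are not reported here, though it is kept in counts, sums and medians. The members and lists were chosen with earlier results of these data known.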

Additional observations from a re-analysis of the deposited data

How the results depend on the processing

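No paired analysis was possible because each group held 1 library, and for the same reason no library could be left out. Counts of HOX genes past 2-fold depended on the settings (main values 4 higher, 5 lower, median log2 ratio -0.38). With a pseudocount of 0.1, 8 HOX genes were higher and 7 lower, and the median was -0.41. HOXA then had 1 higher and 5 lower, HOXC 4 higher and HOXD 3 higher. With a pseudocount of 5, 1 was higher and 1 lower, the median was -0.27, HOXA had 1 lower, HOXB 0 lower, HOXC 0 higher and HOXD 1 higher. With no minimum level the median was 0, and with a minimum of 0.1 it was -0.17. With a minimum of 5, 2 were higher and 3 lower, the median was -0.69, and HOXA had 1 lower, HOXC 1 higher and HOXD 1 higher; fewer genes were tested. Scaled to total gene reads, 3 were higher and 3 lower, and the median was -0.57. HOXA then had 2 lower, HOXB 1 lower and HOXD 1 higher. Per kilobase, 2 were higher and 3 lower, and the median was -0.55. HOXA then had 2 lower, HOXB 1 lower, HOXC 1 higher and HOXD 1 higher. Centring on the median of expressed genes put the summed HOXA ratio, resistant over parental, at 0.736. Of 2 alternatives added after seeing the data, leaving out HOXA3 put it at 0.503. Subtracting the median of 40 neighbouring genes left 6 higher and 2 lower, and a median of -0.13. HOXA then had 1 higher and 1 lower, HOXB 1 lower and HOXC 3 higher. The summed ratios became 0.899 for HOXA, 0.627 for HOXB and 1.38 for HOXC. Division by exon length leaves the plain ratio of each gene unchanged. Scaling to total gene reads put the summed HOXA ratio at 0.732, beside a main value of 0.720. In both settings the added unit and the minimum level stand for other numbers of reads. Apart from the minimum and the omission of HOXA3, the cause of the changes was not tested. Of 27 expressed genes, 25 kept their sign in every alternative computed for them, 6 to 9 a gene; HOXA3 (0.18) and HOXA4 (0.11) were above 0 once the neighbours' median was subtracted. HOXD8 passed 2-fold in every alternative computed for it, and 13 genes crossed the threshold in at least 1.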
